A study of Saccharomyces cerevisiae with 4 samples.

Results

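The arms of chromosome I were taken as the 50 bp bins whose centers lie from 20000 to 131400 on the left arm and from 171600 to 210200 on the right arm of genome release R64, which leaves out the 20 kb at each end and the pericentromere. These limits hold 3000 of the 243150 bins of the profile, and 5 of the 392 replication origins that the study lists by position, *ARS104*, *ARS105*, *ARS106* and *ARS107* on the left arm and *ARS110* on the right arm. The list holds only known origins at which the authors called a BrdU peak in at least 1 of the strains. BrdU-IP-Seq was performed on 2 libraries of *rif1Δ* cells and 2 of *WT* cells, which the methods call experimental replicates. Both strains are *MATa* and *bar1Δ* in a W303-derived background and carry the BrdU-Inc cassette at *LEU2*, which lets yeast take up and use the analog. In *rif1Δ* cells *RIF1* was replaced by KanMX. Cells of each strain were held in G1 with 7.5 nM α-factor for 4 h at 23 °C and released for 45 min into hydroxyurea (HU; 0.2 M in the study's methods) with 400 µg/mL BrdU and 200 µg/mL pronase. The signal is read coverage that the authors smoothed and averaged over the 2 libraries, so there is 1 value per strain and bin. These columns give no spread between libraries, no read depth and no basis for a test, so each difference between strains below stands without a replicate check of its own.

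An origin of budding yeast is an ARS element bound by the origin recognition complex, on which the replicative helicase is loaded in G1 and activated in S phase by the kinases DDK and CDK. BrdU, a thymidine analog, marks the DNA made after release. HU starves the forks of deoxyribonucleotides, so that early origins appear as peaks of limited width. Late or dormant origins give little signal, because intra-S checkpoint signaling in HU inhibits origins that have not yet fired. Rif1 binds telomeres through Rap1 and recruits the phosphatase Glc7, which counters DDK.

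Over the body of *RIF1* itself the mean signal was 0.433 in *rif1Δ* cells and 3.09 in *WT* cells. Background was taken from 5554 windows of 1 kb lying at least 10 kb from any listed origin, with a median of 3.17 in *rif1Δ* and 3.10 in *WT* cells. Their 99th percentile, 13.5 in both strains, served as the threshold for a peak. The sources used here do not state any scaling between the strains, and equal summed nuclear signal would shift a log2 ratio by about 0.06.

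A peak region was a run of at least 500 bp in which either strain exceeded its threshold. The arms held 8 such regions. The signal exceeded the threshold in 6 of them in *rif1Δ* cells and in 7 in *WT* cells. The 5 listed origins each lay in a region of their own, and the other 3 regions held no listed origin and are called here by the gene at their summit, *ATS1*, *DEP1* and *YAT1*. The summit of *ARS105* passed the threshold in *rif1Δ* cells only, and those of *ARS106* and *DEP1* in *WT* cells only. The 8 regions covered 19.5% of the arm bins and held 83.1% of the summed signal in *rif1Δ* cells and 79.1% in *WT* cells. The share of *ARS104*, *ARS105* and *ARS107* was larger in *rif1Δ* cells, at 7.40%, 4.94% and 18.9%, against 2.26%, 0.782% and 10.7% in *WT* cells. *ARS110* alone held 45.5% in *rif1Δ* and 55.4% in *WT* cells. These 2 values count its whole region, which starts at 171401, just outside the arm limit, so they slightly overstate its share.

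**Figure D1:**
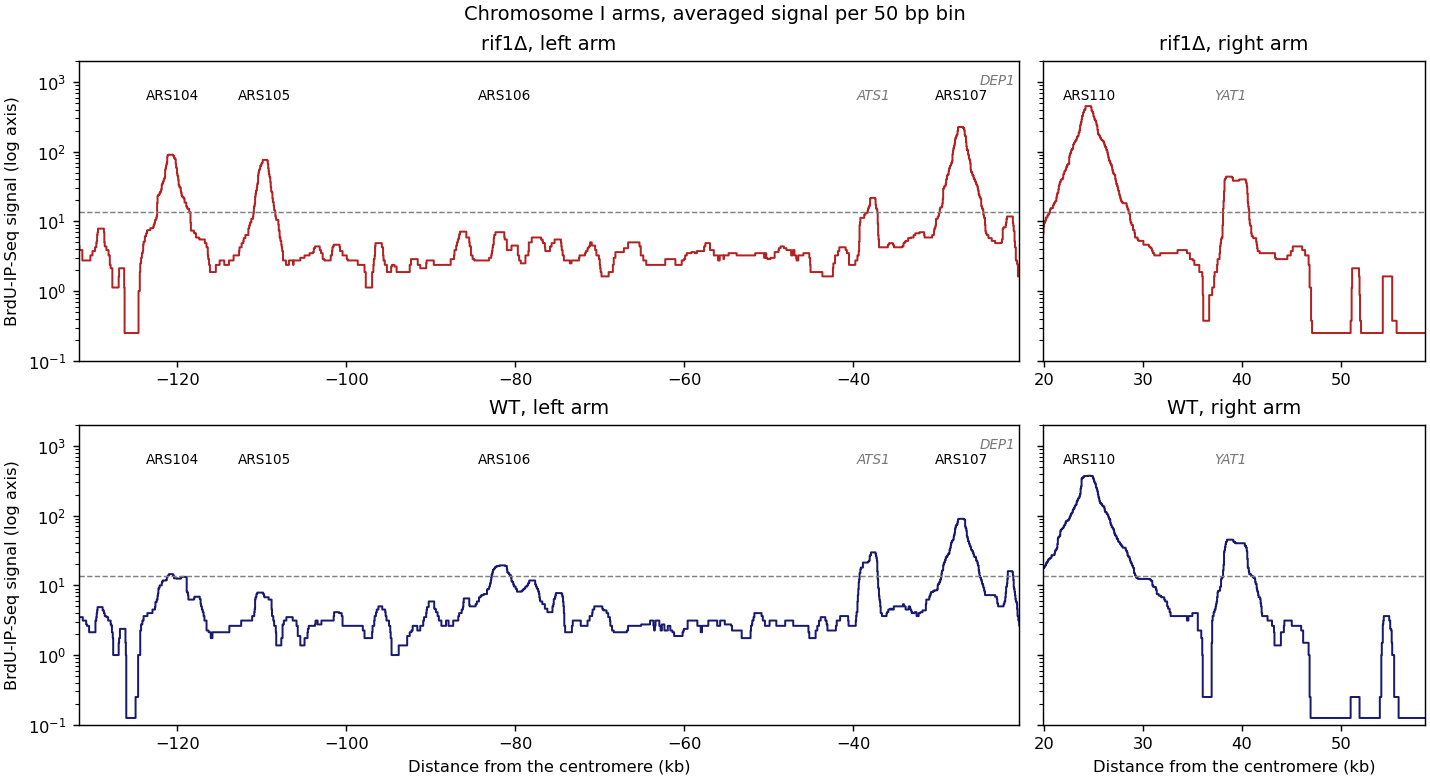
Averaged BrdU-IP-Seq signal of each 50 bp bin (log axis) along the chromosome I arms against the distance from the centromere in kb, *rif1Δ* above and *WT* below, with the threshold of 13.5 as a dashed line, listed origins in black and unlisted peaks in gray italics. The centromere is placed at the middle of the gap between the arms' innermost genes. *ARS104* and *ARS105* stand out in *rif1Δ* cells, *ARS106* passes the threshold in *WT* cells only, and *ARS110* is the highest peak in both.

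*ARS104* lies at 30946 to 31184, between *FLO9*, which encodes a cell wall flocculin, and *GDH3*, an NADP-dependent glutamate dehydrogenase. Its signal, taken like that of each listed origin as the mean of the bins starting within 500 bp of the midpoint, was 85.4 in *rif1Δ* cells and 13.8 in *WT* cells. The *WT* value exceeded the threshold by only 0.327. The log2 ratio, log2((*rif1Δ* + 1)/(*WT* + 1)), was 2.54, on a scale that understates the change of low signals. The summit stood at 90.5 in *rif1Δ* and 14.5 in *WT* cells at the same position in both, 140 bp left of the listed midpoint. The stretch above the threshold was 3.95 kb long in *rif1Δ* and 0.75 kb in *WT* cells, and in *rif1Δ* cells it reached 1.6 kb to the left of the summit and 2.3 kb to the right, into *GDH3*. At 1 kb to the left, at the midpoint and at 1 kb to the right the signal was 38.8, 89.8 and 29.6 in *rif1Δ* cells and 11.4, 14.4 and 12.7 in *WT* cells. The peak thus appeared in *WT* cells as a low mound and in *rif1Δ* cells as a sharp peak at the same site.

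*ARS105*, 10.9 kb further toward the centromere, is listed as a wide interval, 40716 to 43300, over *GPB2* (a negative regulator of cAMP signaling), *PEX22* (a peroxisomal membrane protein) and part of *ACS1* (acetyl-CoA synthetase). It had a signal of 71.2 in *rif1Δ* and 7.16 in *WT* cells, a log2 ratio of 3.15, the largest of the 5. The *rif1Δ* summit, 76.4, fell between *GPB2* and *PEX22*, 67 bp right of the listed midpoint. The *WT* maximum of 7.88 lay 550 bp to the left of it, within *GPB2*, and no *WT* bin of the region passed the threshold. At 1 kb from the midpoint the *rif1Δ* signal was 25.3 to the left and 21.6 to the right, against 6.29 and 3.94 in *WT* cells, and at 3 kb both strains lay at or below 3.7. The *rif1Δ* stretch above the threshold, 2.55 kb, was the shortest of the 4 listed origins that passed it in *rif1Δ* cells.

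*ARS106* (70258 to 70491) ran the other way. It lies between *CYC3*, the cytochrome c heme lyase, and *CDC19*, the pyruvate kinase of glycolysis, and had a signal of 5.94 in *rif1Δ* cells and 18.6 in *WT* cells, a log2 ratio of -1.49. In *WT* cells 2.3 kb exceeded the threshold, with a summit of 19.4, and in *rif1Δ* cells no bin did, the highest being 7.0. The *WT* signal also spread over the genes at both sides. It averaged 15.8 over *CYC3* and 8.85 over *CDC19* in *WT* cells, against 5.05 and 3.09 in *rif1Δ* cells. Past *CDC19*, a lower second rise stood at 5.0 in *rif1Δ* cells and 11.75 in *WT* cells in the 1 bin of YAL037C-A, under the threshold in both. The *WT* signal 2 kb from the midpoint was 8.15 to the left and 8.21 to the right, against 2.75 and 2.67 in *rif1Δ* cells. *ARS106* was the only one of the 5 listed origins with a lower signal in *rif1Δ* cells. It is a low peak, as its *WT* signal exceeded the threshold by only 5.08.

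*ARS107* (124350 to 124599) lies between *PSK1*, a PAS-domain kinase, and *TPD3*, the scaffold subunit of protein phosphatase 2A. The origin lies 26.7 kb from the near edge of the gap between the arms' innermost genes, which holds the centromere. It was a clear peak in both strains, with a signal of 214 in *rif1Δ* and 87.55 in *WT* cells and a log2 ratio of 1.28. The summits reached 226 and 90.25 in *rif1Δ* and *WT* cells and lay within 100 bp of each other. At 1 kb from the midpoint the *rif1Δ* signal was 88.1 to the left and 80.0 to the right, against 43.9 and 40.2 in *WT* cells. At 3 kb it was 9.0 and 7.76 in *rif1Δ* and 8.5 and 7.45 in *WT* cells, so that the strains came close at this distance. The stretch above the threshold was 5.20 kb in *rif1Δ* and 4.55 kb in *WT* cells, so that the *rif1Δ* peak was 2.51 times as high while the stretches were close in length. *PSK1* averaged 51.5 in *rif1Δ* and 26.6 in *WT* cells, and *TPD3* 64.4 and 34.5. *NTG1*, a DNA glycosylase further to the right, averaged 8.75 in *rif1Δ* and 8.06 in *WT* cells.

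*ARS110* (176154 to 176402), between *CDC15*, a kinase of the mitotic exit network, and *PAU7*, a seripauperin, gave the highest peak of the arms. Its signal was 418 in *rif1Δ* and 366 in *WT* cells, a log2 ratio of 0.19. It ranked 17th in *rif1Δ* and 30th in *WT* cells among the 392 listed origins. The summits were 452 and 375, but the stretch above the threshold was shorter in *rif1Δ* cells, 8.0 kb against 9.60 kb in *WT* cells, where it began at 171401, just outside the limit of the right arm. At 1 kb to the left of the midpoint the strains were alike, 213 in *rif1Δ* and 212 in *WT* cells. At 3 kb to the left the signal was 33.9 in *rif1Δ* and 53.8 in *WT* cells, and at 5 kb 4.99 and 12.2. *PAU7* averaged 277 in *rif1Δ* and 278 in *WT* cells, and *DFP1*, further out on the right, 20.3 and 37.6. Summed over the region, the *rif1Δ* signal was 0.974 times the *WT* signal. The direction at this origin thus depended on the measure, higher in *rif1Δ* cells at the center and lower in the tails.

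**Figure D2:**
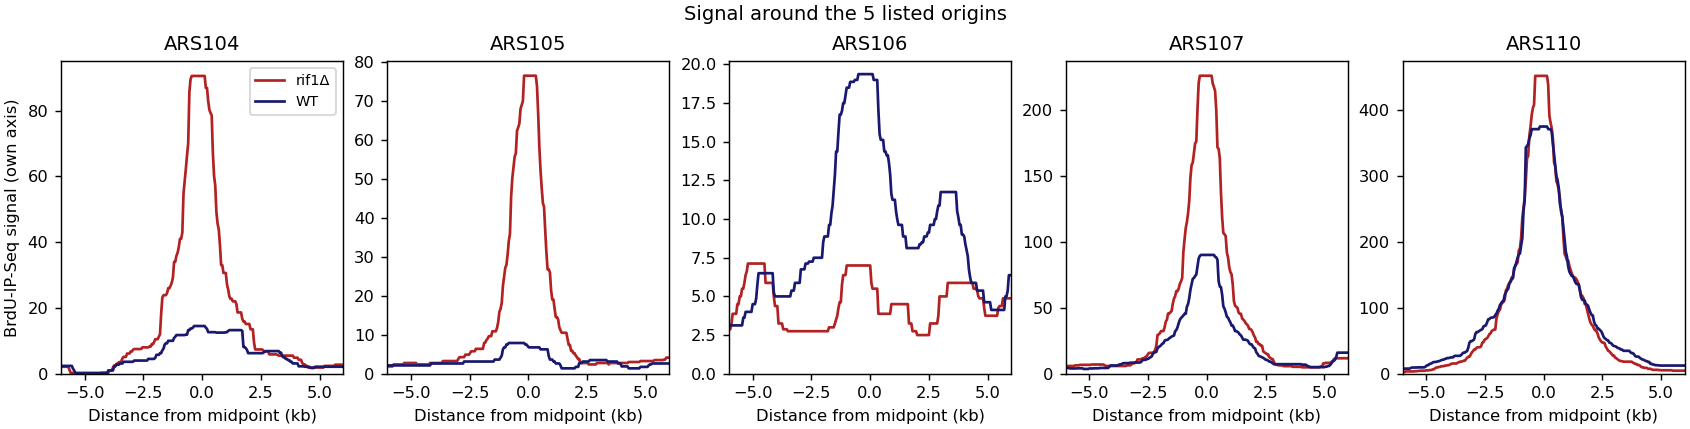
Averaged BrdU-IP-Seq signal within 6 kb of the midpoint of the 5 listed origins, *rif1Δ* in red and *WT* in dark blue, each panel on its own linear axis from 0. The *rif1Δ* summits are higher at *ARS104*, *ARS105*, *ARS107* and *ARS110*, and at *ARS106* the *WT* signal reaches 19.4 while the *rif1Δ* signal stays at or below 7.13.

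The tails were compared at *ARS107* and *ARS110*, the 2 listed origins that stood well above the threshold in both strains. At *ARS110* the mean signal between 2 and 5 kb from the midpoint was 26.2 in *rif1Δ* and 39.8 in *WT* cells. At *ARS107* it was 9.38 in *rif1Δ* and 8.16 in *WT* cells, near equal where the center differed more than 2-fold. As a share of the mean within 250 bp of the midpoint, the tails amounted to 5.91% in *rif1Δ* and 10.7% in *WT* cells at *ARS110*, and to 4.14% and 9.04% at *ARS107*. With the background median subtracted, the shares were 5.23% in *rif1Δ* and 9.90% in *WT* cells at *ARS110*, and 2.78% and 5.81% at *ARS107*. This form was not particular to chromosome I. Of 92 listed origins with a signal over 50 in both strains and no other listed origin within 10 kb, 92 (100%) had a lower share in *rif1Δ* cells, with or without the subtraction. *ARS107* and *ARS110* meet these criteria themselves. The median shares were 4.71% in *rif1Δ* and 9.03% in *WT* cells. The width at 50% of the summit differed less, 1750 bp in *rif1Δ* and 1900 bp in *WT* cells at *ARS110*, and 1550 and 1800 bp at *ARS107*. The authors' smoothing over 1 kb leaves flat tops of 350 to 600 bp on these peaks and blurs any narrower feature.

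**Figure D3:**
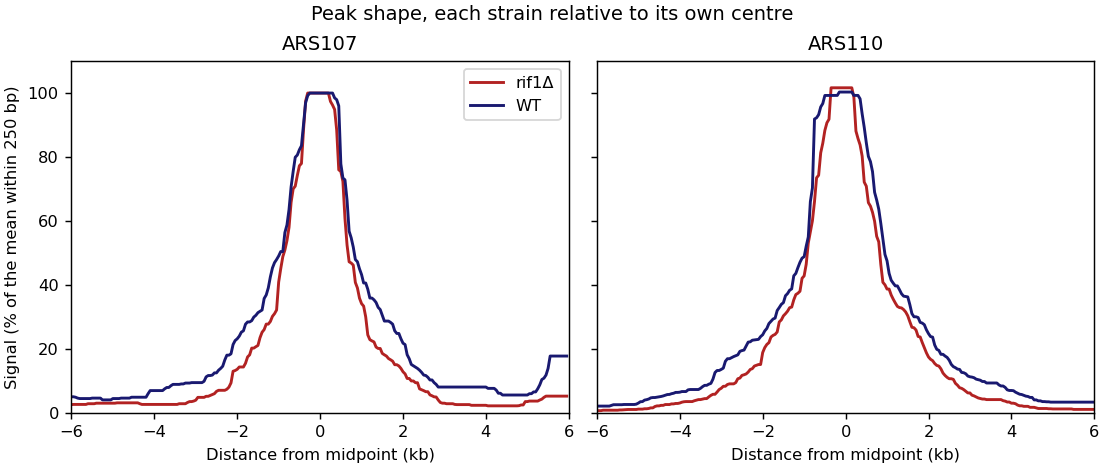
Averaged signal within 6 kb of the midpoint of *ARS107* and *ARS110* as a percentage of each strain's own mean within 250 bp, *rif1Δ* in red and *WT* in dark blue. The *rif1Δ* curves run below the *WT* curves in the tails, where the mean share from 2 to 5 kb is 5.91% in *rif1Δ* and 10.7% in *WT* cells at *ARS110*.

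Of the 3 regions with no listed origin, *YAT1* was the strongest. It runs from 189801 to 192800 over *YAT1*, a carnitine acetyltransferase, and into *SWH1*, an oxysterol-binding protein, 14.2 kb from *ARS110*, and its summit was 43.9 in *rif1Δ* and 45.25 in *WT* cells. Its signal over 1 kb at the summit exceeded that of 138 listed origins in *rif1Δ* cells and of 228 in *WT* cells. Listed origins were measured at their midpoints and not at their summits, which favors *YAT1* in these counts. Many listed origins had no peak in *WT* cells, where only 251 of 392 exceeded the threshold. The peak was lopsided in both strains, falling to 50% of its summit within 500 bp to the left in *rif1Δ* and 600 bp in *WT* cells, and 1850 and 1750 bp to the right. A stretch of near-zero signal over *PRM9* and *MST28*, 187701 to 188700, lies to its left.

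The *ATS1* region (112451 to 114600) covers *ATS1* and the start of the neighboring *CCR4*, the catalytic subunit of the main mRNA deadenylase, in the wide space between *ARS106* and *ARS107*. Its summit was 21.75 in *rif1Δ* and 29.75 in *WT* cells. The *DEP1* region, 0.65 kb long within *DEP1*, a subunit of the Rpd3L histone deacetylase complex, had the lowest summit of the 8 when the higher strain of each region is taken, with a height of 11.75 in *rif1Δ* and 16 in *WT* cells, and lies 5.80 kb from *ARS107*. All 3 unlisted summits were higher in *WT* cells, at *YAT1* by a small margin. Unlisted regions made up 33.4% of the regions in all arms of the genome, and 3 of 8 on chromosome I. The threshold was set from windows at least 10 kb from listed origins, so a small share of such windows passes it by definition. The number of unlisted regions thus depends in part on that choice. On the other 15 chromosomes 95 of 139 unlisted arm regions were higher in *WT* cells, and 2 of the 139 passed a height of 40, as *YAT1* did. This height was not planned and lies just below the *YAT1* summits, so the count does not measure how rare such a peak is.

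**Figure D4:**
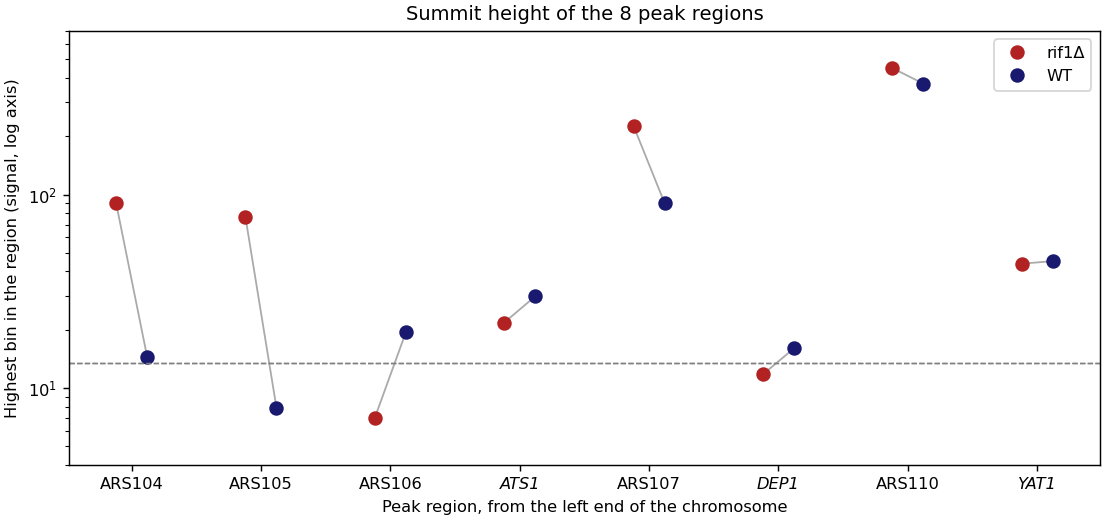
Highest bin of each of the 8 peak regions of the chromosome I arms (log axis), in order from the left end of the chromosome, *rif1Δ* in red to the left of *WT* in dark blue, with the threshold of 13.5 dashed and unlisted regions in italics. The *rif1Δ* point is the higher one at *ARS104*, *ARS105*, *ARS107* and *ARS110*, and the *WT* point at *ARS106*, *ATS1*, *DEP1* and, narrowly, *YAT1*.

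Between the peaks the strains were close. The median of the arm bins outside the 8 regions was 3.25 in *rif1Δ* and 3.12 in *WT* cells. The listed origins are 28.4 kb apart from *ARS105* to *ARS106* and 54.1 kb apart from *ARS106* to *ARS107*, the widest space on the chromosome. From 71201 to 112450, within that space, the *WT* signal was highest, 12.9, in the first bin, at the edge of the *ARS106* region. It also stood at 11.75 in the 1 bin of YAL037C-A. In *rif1Δ* cells no bin of the stretch exceeded 5.88. The medians of this stretch were 3.25 in *rif1Δ* and 2.75 in *WT* cells. The long genes *FUN12*, a translation initiation factor, *MYO4*, a class V myosin, and *DRS2*, a phospholipid flippase, lie in it and averaged 3.49, 2.65 and 3.28 in *rif1Δ* cells and 4.26, 2.42 and 2.38 in *WT* cells. Some stretches were close to 0. In 303 bins (10.1%) at least 1 strain had a signal of 1 or less, 30.6% of the right arm and 3.01% of the left. They lie mostly over the flocculin gene *FLO1* and on both sides of it, 198451 to 205950 and 206901 to 210200, and at *FLO9*, *BOL3* and *BOL1*, *PRM9* and *MST28*. The lowest value of the profile was 0.25 in *rif1Δ* and 0.125 in *WT* cells, and values at this floor have no order.

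Counted by gene, the shares above the threshold were near those of the whole genome. Of 67 annotated genes that lie wholly within the limits, 11 had a mean signal above the threshold in *rif1Δ* cells and 9 in *WT* cells, against 13.1% and 12.9% of the 6431 annotated nuclear genes. A log2 ratio above 1 was found for 4 of the 67 genes, against 5.82% of all annotated genes. They were *PEX22* (61.4 in *rif1Δ* and 6.55 in *WT* cells, log2 ratio 3.05), *GPB2* (24.3 and 4.92, 2.10), *ACS1* (7.72 and 2.54, 1.30) and *GDH3* (28.6 and 12.4, 1.15). *GDH3* lies beside *ARS104*, and the others overlap the listed interval of *ARS105*. *FLO9*, on the other side of *ARS104*, averaged 1.42 in *rif1Δ* and 1.33 in *WT* cells. Much of *FLO9* lies in stretches of near-zero signal, so its mean does not show how far the *ARS104* peak reaches. At 3 kb to the left of the *ARS104* midpoint the signal was 6.7 in *rif1Δ* and 3.7 in *WT* cells. A log2 ratio below -1 was found for 5 of the 67 genes, against 8.01% of all annotated genes. These were *CYC3*, *CDC19* and YAL037C-A at *ARS106*, and the tRNA genes *SUP56* and YNCA0006C just beyond the right edge of the *ARS110* region. The tRNA genes had means of 5.5 and 4.12 in *rif1Δ* cells and 12.6 and 11.7 in *WT* cells, over 2 bins each. YAL037C-A held 1 bin. Of the 5 genes only *CYC3* passed the threshold, in *WT* cells. *CLN3*, which encodes the G1 cyclin that drives entry into the cell cycle, and *CDC24*, the exchange factor of Cdc42 in budding, lie outside the peak regions and averaged 3.93 and 3.59 in *rif1Δ* and 5.67 and 3.06 in *WT* cells. *CDC15*, under the left side of *ARS110*, averaged 62.0 in *rif1Δ* and 74.1 in *WT* cells.

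Set beside the whole list, the 5 origins spanned most of its range. A log2 ratio above 1 was found at 3 of the 5, *ARS104*, *ARS105* and *ARS107*, against 41.6% of all listed origins, and one below -1 at *ARS106* only, against 8.93%. With so few origins, neither count can be set apart from these shares. Counted from the highest ratio, *ARS105* ranked 42nd, *ARS104* 76th, *ARS107* 150th, *ARS110* 220th and *ARS106* 377th of 392. The signal exceeded the threshold at 4 of the 5 origins in *rif1Δ* cells and at 4 in *WT* cells, against 91.1% and 64% of the list. The median log2 ratio was 1.28 over the 5 and 0.70 over the 309 listed origins in the arms of the other chromosomes.

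**Figure D5:**
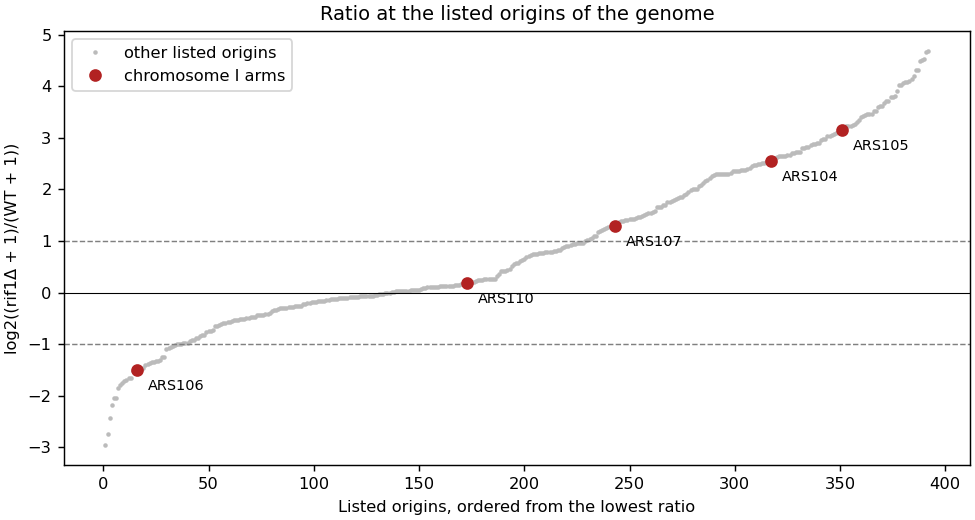
The log2 ratio of *rif1Δ* over *WT* signal at the 392 listed origins, ordered from the lowest, with the 5 origins of the chromosome I arms in red and dashed lines at 1 and -1. *ARS106* lies at -1.49, *ARS110* at 0.19, and *ARS107*, *ARS104* and *ARS105* at 1.28, 2.54 and 3.15.

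The arms of this chromosome differed from each other. The mean signal of the left arm was 10.5 in *rif1Δ* and 6.57 in *WT* cells, a log2 ratio of 0.60, while that of the right arm was 32.7 in *rif1Δ* and 34.1 in *WT* cells. Over both arms it was 16.2 in *rif1Δ* and 13.7 in *WT* cells, a ratio of 1.19, and the arms of the other 15 chromosomes ranged from 0.792 to 1.28 with a median of 0.996. Outside the limits, toward the left end, all 5 listed origins had log2 ratios between 2.00 and 4.10, and in the pericentromere *ARS107.5*, *ARS108* and *ARS109* had ratios between -0.28 and -0.16.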

How the data were processed

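BrdU-IP-Seq libraries of *rif1Δ* and *WT* cells were deposited as 1 profile. The authors trimmed 10 bases of barcode, aligned 50 bp paired reads with Bowtie2 to release R64, took counts per 50 bp bin, applied median smoothing over 1 kb, quantile-normalized between replicates, averaged both and smoothed again. The deposited signal is thus smoothed coverage with 1 column per strain, and the scaling between strains and the tool versions are not given in the sources used here. Smoothing joins neighboring bins, lowers narrow peaks and makes flat tops, whose middle was taken as the summit. Origin names and positions came from the study's list, whose class column holds the authors' own comparison between the strains and was not used, and gene positions from the R64 gene table. Windows of 500 bp to each side, a pseudocount of 1, joining of runs at most 500 bp apart and a fold of 2 (log2 of 1) were used. Named genes were *RIF1*, those at or beside a summit, and a short list chosen for known roles or size. Others, named where a count or a quiet stretch is described, were chosen after their values were seen, as were the comparisons of tails. The height of 40 used for unlisted regions was not planned either. Other arms were limited at 20 kb from the ends and from the gap between the arms' innermost genes. The members and lists were chosen with earlier results of these data known. Python 3.11.15, numpy 2.4.6 and pandas 2.3.3 were used. The calling of regions and the log2 ratio were tested on simulated peaks without the smoothing over 1 kb. Summit positions, widths and tails were not tested in this way. Alternatives changed the window, pseudocount, scaling, background, threshold, joining and fold.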

Additional observations from a re-analysis of the deposited data

How the results depend on the processing

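No paired analysis was possible because each strain is present only as the mean of its libraries, which also kept single libraries from being left out. A ratio was taken to have moved where it changed by more than 0.5 on the log2 scale, and a count where it changed by more than 1.5 times. The log2 ratios of the 5 origins kept their direction under 7 alternatives, and 7 of 35 values moved, at *ARS104*, *ARS105* and *ARS106*. *ARS106* came to -0.84 with a pseudocount of 10, so that 0 origins remained below -1, and to -2.13 with the background median subtracted. *ARS110* came to 0.05 with 2500 bp to each side. The median over the 5 stayed between 1.06 and 1.34. The number of peak regions rests on the threshold. At the stricter percentile of the background (thresholds of 35.6 in *rif1Δ* and 36.8 in *WT* cells), 5 regions were left in either strain, 3 in *WT* cells, and 1 without a listed origin, *YAT1*. With a threshold of 20, 4 were left in *WT* cells. *ARS106*, with summits of 7.0 in *rif1Δ* and 19.4 in *WT* cells, was not a region at these stricter thresholds. The changes in number follow from the stricter thresholds. Read depth is unknown, so that low peaks such as *ARS106* and *DEP1* cannot be weighed against counting error.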
